A study of Rattus norvegicus with 6 samples.

Results

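A set of 10 genes of the Notch pathway were followed in the corneal epithelium of diabetic and normal rats: the receptors Notch1, Notch2 and Notch3, the ligands Jag1, Jag2 and Dll1, the DNA-binding factor Rbpj, the target genes Hes1 and Hey1, and the inhibitor Numb. They were chosen by name, as 10 of the 27943 gene names in the expression tables. Where a name stood on several rows, the protein-coding row with the highest mean FPKM was used (fragments per kilobase of transcript, scaled to the mapped fragments of the library, a level per unit of length). Of the 10, 9 passed a filter on low values, which Hey1 did not. The test applied to all loci that passed called 0 of these 9 as different between the groups. The largest fitted change among the 9 was in Numb. It fell from a log2 fold change of 0.50 to 0.15 without diabetic 2.

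The diabetic group was made up of male Brown Norway rats given 1 intraperitoneal injection of streptozocin at 50 mg/kg, and the normal group of rats of the same strain and sex given citrate buffer. Streptozocin destroys the insulin-producing cells of the pancreas, so the model is a chemical one, acting on the whole animal. The epithelium was scraped from the cornea 16 weeks later, and RNA was sequenced in 3 libraries per group. The RNA came from 6 corneas per group, of 6 rats in all. How these were combined into the libraries, and how old the rats were, is not stated in the labels or methods, so the spread between libraries may be in part technical.

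Notch receptors are proteins of the cell surface that are activated by ligands on the neighbouring cell. Binding lets a metalloprotease and then the gamma-secretase complex cut the receptor, and the freed inner part moves to the nucleus, joins RBPJ and Mastermind coactivators, and turns on genes of the Hes and Hey families. In stratified epithelia such as the skin and the cornea, the pathway is known for its part in the balance between dividing basal cells and differentiating upper cells.

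RBPJ binds the core letters TGGGAA, and promoter windows of 4 members hold them. The windows, from RefSeq on the GRCr8 assembly, run from 250 bases before to 50 bases after a start site, and 9 of the 10 members were matched, with 11 windows (Hey1 was not). The 4 below are shown because they carry the core, in capitals, read as TGGGAA on the printed strand or as TTCCCA on the other. On GRCr8, Hes1 is at chr11:84212996-84213295, Dll1 at chr1:64993225-64993524, Rbpj at chr14:61615477-61615606 and Notch3 at chr7:11834536-11834563, all on the minus strand, and the last 2 are stretches of their windows.
Hes1: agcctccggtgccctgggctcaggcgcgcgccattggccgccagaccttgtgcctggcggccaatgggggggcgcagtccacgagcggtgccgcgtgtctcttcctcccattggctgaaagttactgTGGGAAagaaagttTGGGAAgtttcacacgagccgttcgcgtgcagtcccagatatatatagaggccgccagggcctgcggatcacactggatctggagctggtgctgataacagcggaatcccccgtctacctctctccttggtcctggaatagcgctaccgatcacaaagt
Dll1: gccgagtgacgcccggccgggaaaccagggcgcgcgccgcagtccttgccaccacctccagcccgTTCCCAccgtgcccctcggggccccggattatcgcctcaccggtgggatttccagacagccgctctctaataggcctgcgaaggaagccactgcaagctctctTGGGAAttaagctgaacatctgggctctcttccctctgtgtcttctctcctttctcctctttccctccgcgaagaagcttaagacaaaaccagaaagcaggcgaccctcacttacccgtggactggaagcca
Rbpj: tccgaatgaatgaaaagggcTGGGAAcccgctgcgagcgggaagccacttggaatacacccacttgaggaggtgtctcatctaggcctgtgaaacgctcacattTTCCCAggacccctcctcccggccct
Notch3: ccgggacgtgcccggagcccTGGGAAag
In Hes1, the classical target gene, the 2 exact matches lie on the same strand with 8 bases between them. RBPJ sites that depart from the core letters were not searched for, so the arrangement of all sites is not shown. The core was present in 25.7% of the 33469 rat promoters of the same length, and 3.85% held it 2 or more times. The form GTGGGAA, which includes the core, was found in the Hes1 and Dll1 windows and in 6.29% of all promoters. These are matches of letters and not measured binding sites.

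The libraries held 62288901 to 87040253 counts, so that a count of 0 allows a level of up to 0.0345 to 0.0482 CPM (counts scaled to the library total), for counting error only. Krt12, the keratin of the corneal epithelium, was at 3660 to 4455 FPKM in all libraries. Pax6, a transcription factor of the eye, was at 17.2 to 23.2 FPKM. The libraries diabetic 2 and diabetic 3 stood apart on the first principal component (26.2% of the variance), at 43.8 and 53.1. Diabetic 1 was at -28.8 on it and the normal libraries at -38.9 to -11.2. On the second component (21.8%), diabetic 3 and normal 3 stood apart, at 40.6 and 49.1, against -29.3 to -10.8 in the others. Diabetic 2 also held the highest level of 8 lens genes, summed to 959 FPKM, against 3.25 to 247 FPKM in the other libraries.

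The levels of the members gave an order that was led by Hes1 at a mean of 21.6 FPKM over the 6 libraries. Notch3 (20.2 FPKM), Notch1 (16.8 FPKM), Jag1 (12.5 FPKM), Jag2 (9.11 FPKM), Notch2 (7.82 FPKM), Rbpj (4.96 FPKM), Numb (3.79 FPKM), Dll1 (2.67 FPKM) and Hey1 (0.324 FPKM) followed. Neighbours in that order were set apart by their ranges over the libraries in only 3 places, between Jag1 and Jag2, between Notch2 and Rbpj, and between Dll1 and Hey1. The median of 12278 protein-coding loci that passed the filter was 4.66 FPKM, and 7 members lay above it.

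**Figure D1:**
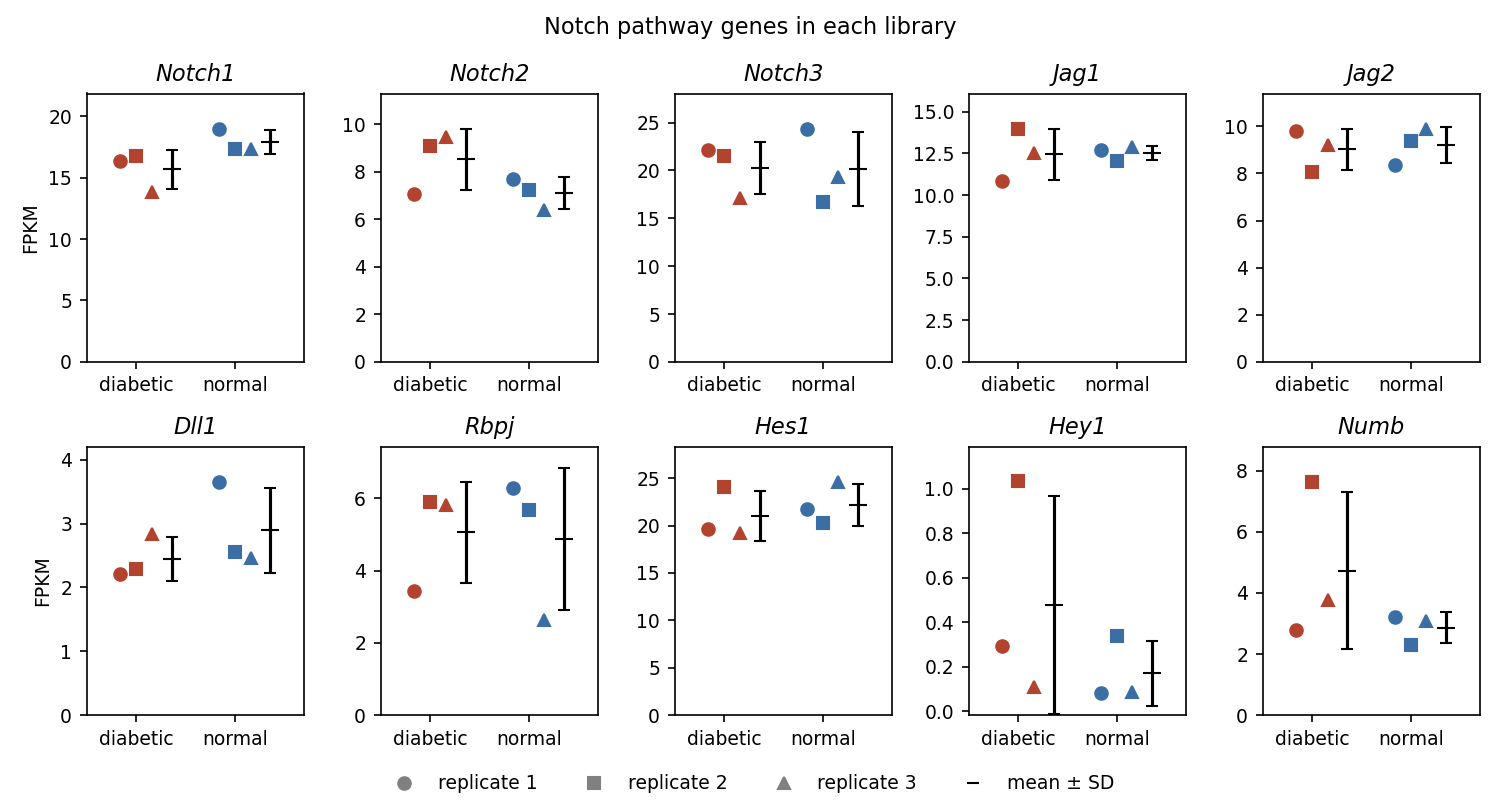
FPKM of the 10 members in each library (points, shaped by replicate number), with the mean and SD of the 3 libraries of each group beside them, diabetic left of normal. Each panel has its own axis. The groups overlap for every member but Notch1, whose 3 diabetic libraries lie at 13.8 to 16.8 FPKM.

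Loci were tested with limma on quantile-normalised log2(FPKM + 1) where their mean was at least 0.5 FPKM, with Benjamini-Hochberg adjustment over all 42551 such loci, and were called at an adjusted p under 0.05 with a fold change over 1.2. A fold change on this scale understates the change of low genes. Of the 10 members, 9 passed the filter and 0 were called, where 0.0259% of all loci were called. On the counts, edgeR (0.0141% of loci called) and DESeq2 (0.234%) also called 0 members. At an unadjusted p under 0.05, limma named 0 members (4.8% of all loci), edgeR 0 (4.14%) and DESeq2 1 (5.02%), which was Numb. The adjusted p of limma was 0.953 to 0.999 over the 9 members. Their log2 fold changes were positive in 5 and negative in 4, with a median of 0.0056, against -0.0049 over all loci. A p-value above the threshold does not show that levels were equal, so intervals are given for each member. In these bulk samples, fewer cells of a type and less RNA per cell cannot be told apart.

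On the rn6 build of the files, the used rows of the receptors span chr3:3905453-3951025 (minus strand) for Notch1, chr2:200187179-200320215 (plus strand) for Notch2 and chr7:14136581-14189687 (minus strand) for Notch3. Of these, Notch1 was the member whose groups did not overlap. It had 16.4, 16.8 and 13.8 FPKM in diabetic libraries, against 19.0, 17.3 and 17.4 FPKM in normal libraries. Each diabetic library was thus below each normal one. Of all loci, 9.66% did not overlap between the groups, 3.94% being higher and 5.72% lower in diabetic libraries. The mean was 15.7 ± 1.59 FPKM in diabetic and 17.9 ± 0.953 FPKM in normal epithelium (SD, n = 3 each), a log2 fold change of -0.16 (95% interval -0.40 to 0.076, limma adjusted p = 0.953), which was -0.092 without diabetic 3. The exact two-sided permutation test gave p = 0.10, the smallest that 3 against 3 libraries can reach, and 0.3 to 1.0 for the other 9 members. On CPM scaled by TMM the groups overlapped, at 377, 397 and 311 in diabetic libraries and 433, 393 and 390 in normal libraries.

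Notch2 had 7.08, 9.09 and 9.46 FPKM in diabetic libraries, against 7.70, 7.24 and 6.37 FPKM in normal libraries. Diabetic 2 and diabetic 3, the libraries that stood apart on the first component, were above all others, and diabetic 1 lay within the normal range. The means were 8.54 ± 1.28 FPKM in diabetic and 7.11 ± 0.675 FPKM in normal epithelium (SD, n = 3 each), with a log2 fold change of 0.25 (95% interval -0.073 to 0.58, limma adjusted p = 0.953). Without diabetic 1 it was 0.38, with an unadjusted p of 0.0168 and an adjusted p of 0.472 by limma. Notch3, the receptor of the highest mean level, had 22.1, 21.5 and 17.2 FPKM in diabetic libraries, against 24.4, 16.8 and 19.3 FPKM in normal libraries. The diabetic values lay within the range of the normal ones, and the log2 fold change was 0.030 (95% interval -0.31 to 0.37).

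The receptors made up a sum of 45.4 ± 3.15 FPKM in diabetic and 46.2 ± 5.11 FPKM in normal epithelium, with Notch4 included. Notch1 took 35.4%, 35.0% and 33.1% of that sum in diabetic libraries, against 36.5%, 40.8% and 39.5% in normal libraries, without overlap. Notch2 took 15.3%, 19.0% and 22.6% in diabetic libraries, against 14.8%, 17.0% and 14.5% in normal libraries, with overlap. Notch1 over Notch2 was a ratio of 2.32, 1.85 and 1.46 in diabetic libraries, against 2.47, 2.39 and 2.72 in normal libraries. It is 1 of 4 ratios, chosen after the levels had been seen, and the other 3 overlapped between groups. The shares and ratios rest on the same FPKM values and were not tested.

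**Figure D2:**
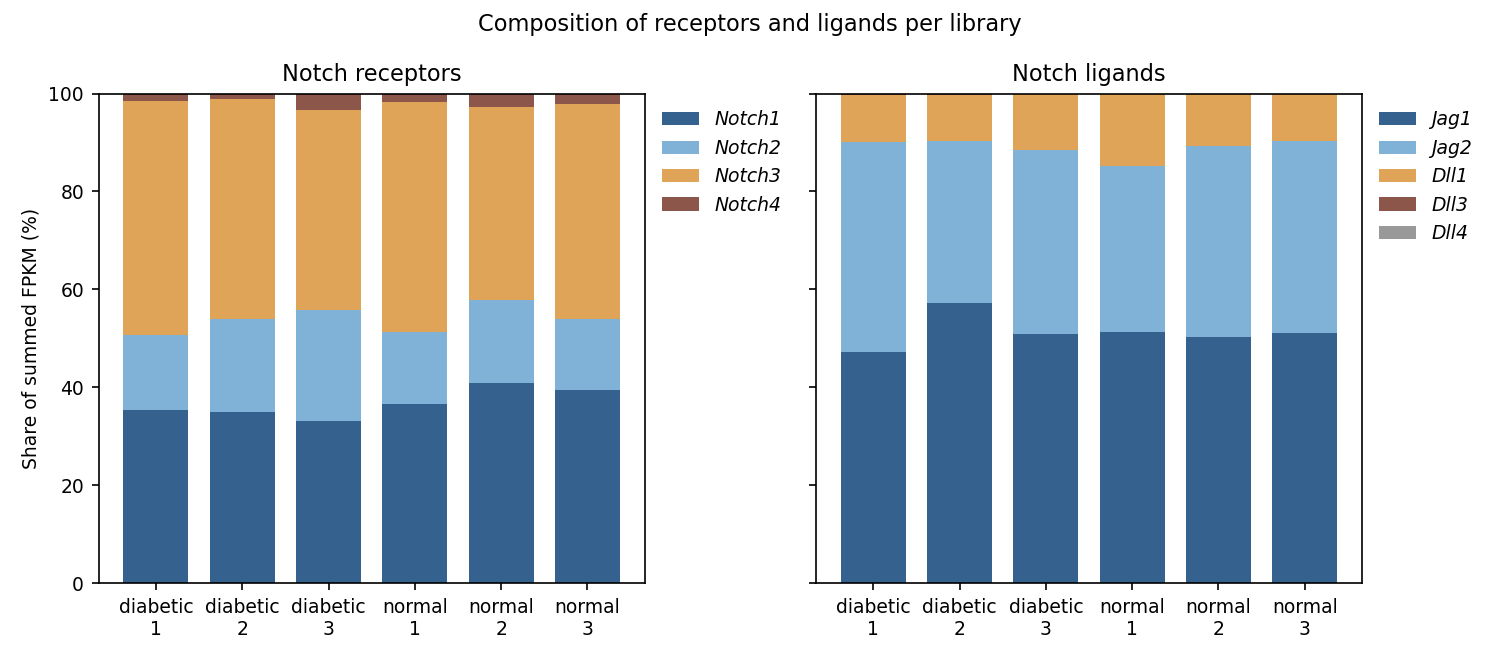
Share of the summed FPKM of receptors and of ligands that each gene took in each library, diabetic libraries left of normal ones. Notch1 took 33.1% to 35.4% of the receptor sum in diabetic libraries and 36.5% to 40.8% in normal libraries, and the shares of Dll3 and Dll4 are too small to see.

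The ligands lie on rn6 at chr3:130079361-130114770 (minus strand) for Jag1, chr6:137711155-137733399 (minus strand) for Jag2 and chr1:57318708-57327379 (minus strand) for Dll1. Jag1, a Serrate-type ligand, had 10.8, 13.9 and 12.5 FPKM in diabetic libraries, against 12.7, 12.0 and 12.9 FPKM in normal libraries. Its log2 fold change was 0.0056 (95% interval -0.27 to 0.28), and the diabetic libraries held both the lowest and the highest value. Jag2 had 9.80, 8.07 and 9.21 FPKM in diabetic libraries, against 8.36, 9.38 and 9.87 FPKM in normal libraries. Its groups overlapped, with a log2 fold change of -0.0091 (95% interval -0.27 to 0.25), and its row is joined with a microRNA, so its values are uncertain to that extent. Dll1, a Delta-type ligand, had 2.21, 2.29 and 2.84 FPKM in diabetic libraries, against 3.66, 2.55 and 2.47 FPKM in normal libraries. Diabetic 3 was above 2 of the normal libraries, and the log2 fold change was -0.15 (95% interval -0.52 to 0.22). Without normal 1, the highest library, it was -0.011. Jag1 made up 51.8 ± 5.05% of the ligand sum in diabetic and 50.9 ± 0.573% in normal epithelium.

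The genes that act in the nucleus lie on rn6 at chr14:59655942-59735608 (minus strand) for Rbpj, chr11:74312806-74315248 (minus strand) for Hes1 and chr2:95320283-95322696 (plus strand) for Hey1. Rbpj had 3.44, 5.90 and 5.82 FPKM in diabetic libraries, against 6.28, 5.67 and 2.62 FPKM in normal libraries. A library in each group, diabetic 1 and normal 3, was low, and the log2 fold change was 0.10 (95% interval -0.60 to 0.80). Hes1, a transcriptional repressor and direct target of the pathway, had 19.7, 24.1 and 19.2 FPKM in diabetic libraries, against 21.7, 20.2 and 24.6 FPKM in normal libraries. The groups overlapped, and the log2 fold change was -0.068 (95% interval -0.37 to 0.23). Hey1, a repressor of the related Hey family, had 28, 70 and 8 counts in diabetic libraries, against 8, 29 and 8 counts in normal libraries. It was below the filter. With no filter on low values its log2 fold change was 0.32 (95% interval -0.26 to 0.91, limma adjusted p = 0.941, 0.00589% of loci called), and the groups overlapped. On the counts with no filter, edgeR gave a log2 fold change of 1.48 (adjusted p = 0.954), larger than any other member's.

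Numb, an adaptor that counteracts Notch receptors, lies on rn6 at chr6:107276758-107402241 (minus strand). It had 2.80, 7.63 and 3.76 FPKM in diabetic libraries, against 3.21, 2.28 and 3.08 FPKM in normal libraries. Diabetic 2 was high, diabetic 3 lay above each normal library, and diabetic 1 lay within the normal range. The log2 fold change was 0.50 (95% interval -0.18 to 1.19, limma adjusted p = 0.953). On the counts of the same row it was larger, at 0.76 by edgeR (adjusted p = 0.991) and 0.77 by DESeq2. DESeq2 gave an unadjusted p of 0.0278 and an adjusted p of 0.881. Without diabetic 2 the limma log2 fold change was 0.15 (unadjusted p = 0.422). Without diabetic 1 it was 0.75, with an unadjusted p of 0.0362 and an adjusted p of 0.512 by limma. Diabetic 2 is the library with the highest sum of lens genes, and the part of lens tissue in the Numb value was not tested.

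**Figure D3:**
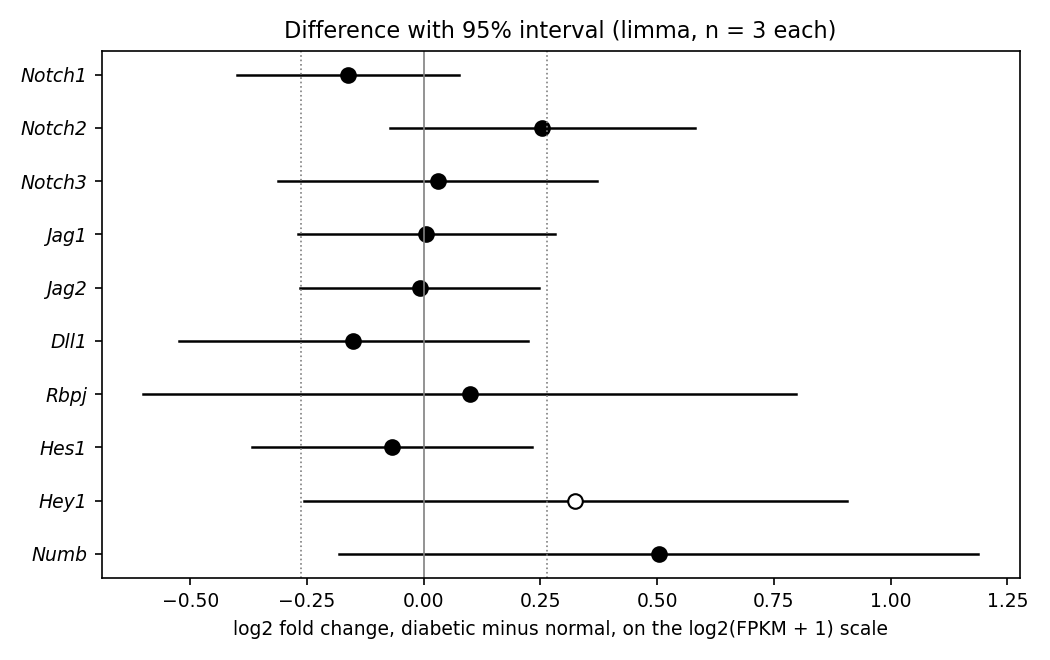
Log2 fold change of each member, diabetic minus normal, with its 95% interval from limma on log2(FPKM + 1), and dotted lines at a fold change of 1.2 in either direction. Every interval includes 0, from Notch1 at -0.16 to Numb at 0.50. Hey1, the open point, comes from the fit with no filter on low values.

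A total of 25 rows carried a member's name, and 15 of them were not used: 3 on the same strand as the gene, 11 on the opposite one and 1 with no strand. No source read here states whether the counting used strand, so reads of a gene and of the opposite strand cannot be told apart. For Numb, rows other than the one used held 49.1% to 72.3% of the counts. For Rbpj they held 33.1% in diabetic 1 and 41.6% in normal 3, and 16.2% to 19.8% in the other libraries. Where the coding row of Rbpj was low, its opposite-strand rows were thus high, at a sum of 11.0 FPKM in diabetic 1 and 14.5 FPKM in normal 3, against 7.45 to 10.1 FPKM in the others.

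Summing the FPKM of all rows of a name adds short rows with few counts at full weight, and with it Rbpj had 14.4, 13.4 and 14.1 FPKM in diabetic libraries, against 16.3, 15.8 and 17.1 FPKM in normal libraries, without overlap. The log2 fold change was -0.20, the other way from the coding row, with an unadjusted p of 0.0559 and an adjusted p of 0.953 by limma. With the counts of all rows summed and scaled by TMM, an alternative chosen after seeing the data, Rbpj overlapped, at 65.3, 92.2 and 86.9 CPM in diabetic libraries and 97.0, 88.9 and 55.8 CPM in normal libraries, and edgeR gave a log2 fold change of 0.016. Dll1 in FPKM summed over its 2 rows was at 3.01, 2.29 and 3.49 FPKM in diabetic libraries, against 5.56, 3.65 and 3.71 FPKM in normal libraries, also without overlap. Its log2 fold change was -0.41, with an unadjusted p of 0.0571 and an adjusted p of 0.953 by limma. The second row of Dll1 held 0 to 54 counts, and with counts summed Dll1 overlapped too, at 9.64, 9.96 and 12.0 CPM in diabetic libraries and 16.0, 11.1 and 10.6 CPM in normal libraries. Summed over 3 rows, Numb overlapped, at 9.65, 17.7 and 14.8 FPKM in diabetic and 10.8, 10.3 and 10.1 FPKM in normal libraries. With counts summed it had 57.8, 113 and 85.3 CPM in diabetic and 63.9, 59.8 and 59.3 CPM in normal libraries. In both, diabetic 2 and diabetic 3 lay above each normal library and diabetic 1 below. On the summed counts, edgeR gave Numb a log2 fold change of 0.49 (adjusted p = 0.991).

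**Figure D4:**
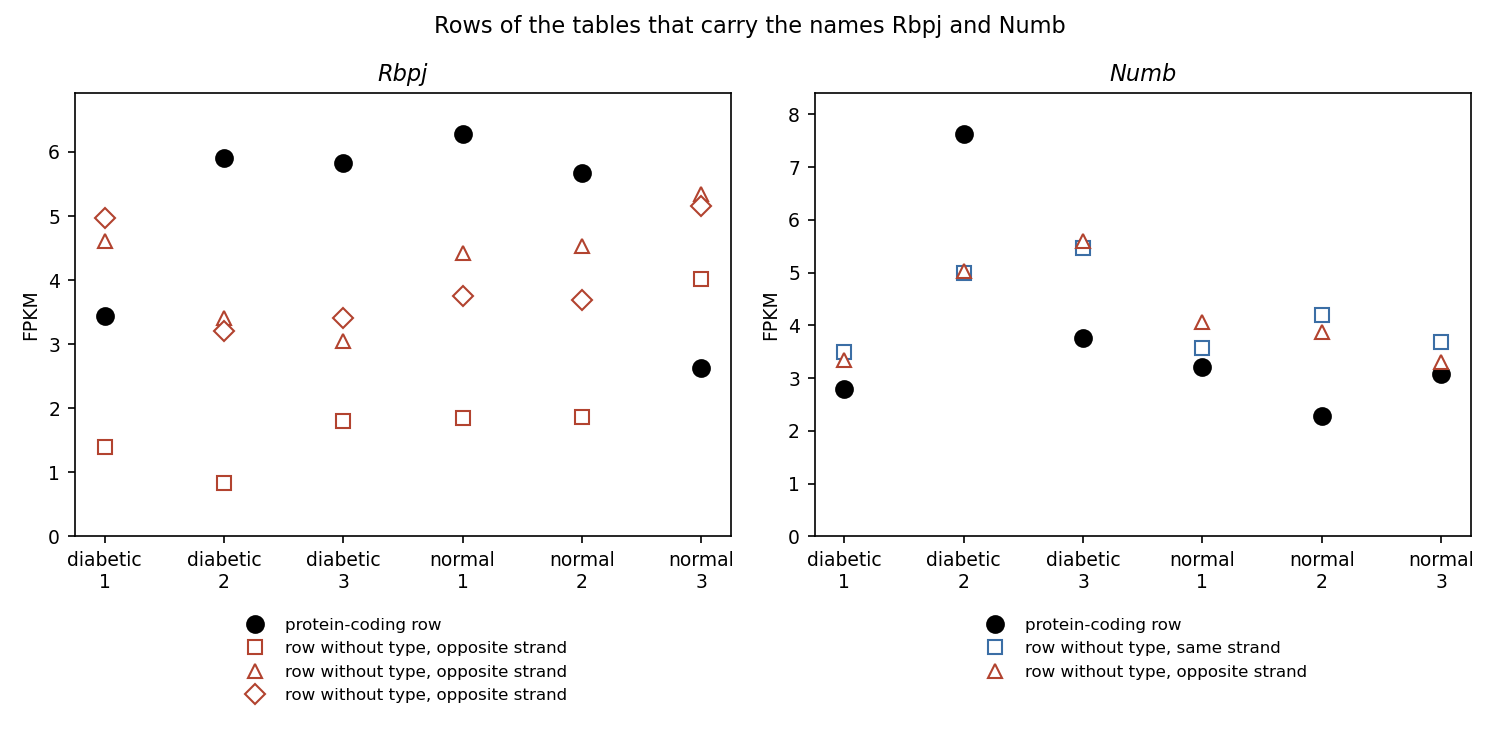
FPKM of each row named Rbpj (left) or Numb (right) by library, diabetic libraries left of normal ones. Filled points are the protein-coding row, and open points the rows without a transcript type, on the strand given in the legend. The coding row of Rbpj is low in diabetic 1 (3.44 FPKM) and normal 3 (2.62 FPKM), and that of Numb is high in diabetic 2 (7.63 FPKM).

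A wider list of 64 pathway genes was read in the same way, of which 62 were found and 48 passed the filter. None was called by limma, edgeR or DESeq2, and 0 had an unadjusted p under 0.05 by any of them. Their log2 fold changes were positive in 25 and negative in 23, with a median of 0.013. Groups did not overlap in 4 of the 48 (8.33%), against 9.66% of all loci. A KEGG list of 47 Notch pathway genes, 40 of them shared with the members or the wider list, gave 21 positive and 19 negative values of 40 tested, and 0 calls.

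Among the enzymes that cut the receptor, 9 genes were tested, 4 positive and 5 negative. Adam10 is the metalloprotease of the cut that ligand binding allows. It had 13.8, 14.8 and 13.8 FPKM in diabetic libraries, against 15.2, 15.7 and 14.9 FPKM in normal libraries. The groups did not overlap, and the log2 fold change was -0.078 (limma adjusted p = 0.963). The gamma-secretase subunits Psenen and Ncstn were the most abundant of this group, at 28.8 to 41.3 FPKM. Aph1b, a further subunit, had the smallest p of the group, at -0.16 with overlapping groups (limma adjusted p = 0.963). All 4 tested glycosyltransferases of the receptor were negative, from -0.12 (Lfng) to -0.030 (Rfng), and Pofut1, which adds fucose to the receptor, was at -0.039. Of the further receptors and ligands, 2 of 6 were tested, Notch4 at -0.10, on a row with a joined name, and Dlk2, a Delta-like protein, at -0.16 (limma adjusted p = 0.978 for both).

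Of 10 tested genes of receptor trafficking and turnover, 6 were positive and 4 negative. Numbl, the paralog of Numb, had 1.96, 2.10 and 2.13 FPKM in diabetic libraries, against 1.91, 1.87 and 1.58 FPKM in normal libraries. Its groups did not overlap, while those of Numb did, and its log2 fold change was 0.15 (limma adjusted p = 0.954). Dtx2, a Deltex protein, lay lower without overlap at a log2 fold change of -0.042. Fbxw7, a subunit of the ubiquitin ligase that removes the active receptor fragment, was at 0.21 with overlapping groups, and Dtx3l, another protein of the Deltex family, at 0.20.

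Of the nuclear partners, 6 coactivators were tested, with 4 positive, and 11 corepressors, with 9 positive and 2 negative. Ctbp2, a corepressor, was at a log2 fold change of 0.23 with overlapping groups (limma adjusted p = 0.953). Tle3, a Groucho-type corepressor, did not overlap before rounding, at 10.3, 10.4 and 10.5 FPKM in diabetic libraries, against 9.78, 10.2 and 10.3 FPKM in normal libraries, a log2 fold change of 0.060. Maml1, a Mastermind coactivator, was at 0.19 and Crebbp, a histone acetyltransferase, at 0.055. None of these values passed the test.

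Of 11 further target genes, 6 were tested, 2 positive and 4 negative. Myc, a growth regulator, had 3.56, 2.42 and 2.32 FPKM in diabetic libraries, against 3.95, 2.83 and 4.74 FPKM in normal libraries. It had the largest log2 fold change of the wider list, at -0.35, with overlapping groups (limma adjusted p = 0.953). Nrarp, a target that feeds back on the pathway, was at 11.9 to 17.0 FPKM with a log2 fold change of 0.11, and Hey2 was at 2.92 to 5.91 FPKM, well above Hey1. Hes7 and Heyl lay under the filter and did not overlap in FPKM, Hes7 with 24, 18 and 8 counts in diabetic libraries against 2, 8 and 0 counts in normal libraries. Heyl had 42, 45 and 44 counts in diabetic libraries, against 34, 15 and 17 counts in normal libraries. The share of 9.66% of loci without overlap covers only loci that passed the filter. None was computed for loci under it, so Hes7 and Heyl have no share to be set against. With no filter, limma called 0 of 61 genes of the wider list. Dll4, a ligand known from blood vessels, had 0, 12 and 7 counts in diabetic libraries and 0 in each normal library.

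**Figure D5:**
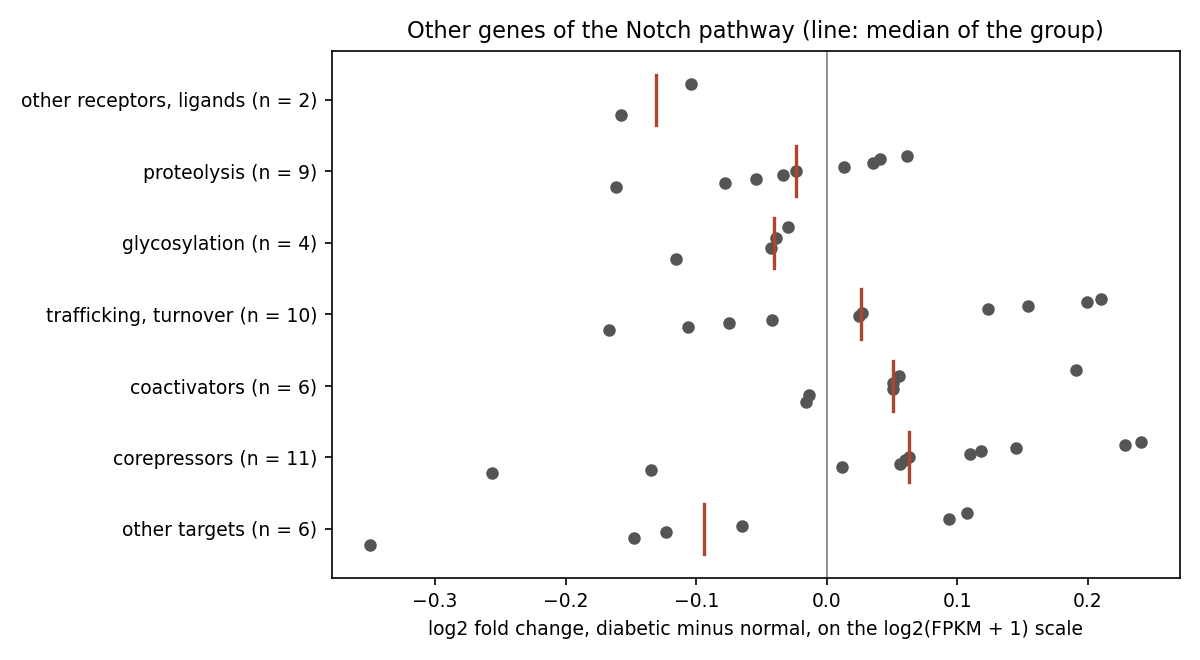
Log2 fold change of the tested genes of the wider list, diabetic minus normal, by role, with red lines at the median of each role (limma on log2(FPKM + 1)). The lowest value is that of Myc at -0.35, and none passed the test.

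Markers of other cells were read because Notch genes are also used by vessels, stroma and immune cells. Conjunctival genes, 5 found, summed to 574 FPKM in diabetic 3 and 890 to 1460 FPKM in the other libraries. Krt19 is on a row joined with Krt14, Krt17 and Krt42, so this sum may include reads of those keratins. Early stress genes, 10 in all, summed to 139 and 155 FPKM in diabetic 2 and diabetic 3, against 224 to 395 FPKM in the others. The part of either in the levels of the members was not tested. Of 7 blood endothelial genes found, the sum was 8.70 to 12.95 FPKM in diabetic and 11.5 to 13.8 FPKM in normal libraries, with overlap, Kdr was at 3.11 to 5.44 FPKM, and Cdh5, a defining gene, was at 0 to 0.13 FPKM. Keratocyte genes, 5 in all, summed to 702 to 794 FPKM in diabetic and 804 to 1013 FPKM in normal libraries, without overlap. Only Lum, a proteoglycan of the stroma, did not overlap by itself, and without it the sums were 579 to 673 FPKM in diabetic and 632 to 862 FPKM in normal libraries, with overlap. The 6 pericyte and smooth muscle genes summed to 9.96 to 12.0 FPKM in diabetic and 13.3 to 14.9 FPKM in normal libraries, with Rgs5 and Abcc9 at 0 in some libraries. That gap rested on Cspg4, at 5.30, 0.519 and 2.69 FPKM in diabetic libraries, against 5.89, 5.54 and 5.24 FPKM in normal libraries, and without it the sums overlapped, at 6.39 to 11.5 FPKM in diabetic and 8.07 to 9.02 FPKM in normal libraries. The 6 leukocyte genes summed to 32.4 to 37.5 FPKM in diabetic and 35.7 to 38.2 FPKM in normal libraries, with overlap. Of these, Cd74, a chaperone of antigen presentation, did not overlap, at 2.68, 3.35 and 3.21 FPKM in diabetic libraries, against 5.25, 8.03 and 3.97 FPKM in normal libraries (limma adjusted p = 0.953). Ptprc, the defining gene of leukocytes, was at 0.0895 to 0.453 FPKM. The genes Lum, Cspg4 and Cd74 were chosen after their values were seen. Lum, Cd74 and, in FPKM but not in TMM-scaled CPM, Notch1 were lower in each diabetic library than in each normal one. In FPKM, 5.72% of all loci were lower in this way. Of the genes tested, 2 of 4 leukocyte genes and 0 of 5 keratocyte genes were positive. Among blood endothelial genes 0 of 3 tested were positive, and among pericyte and smooth muscle genes 1 of 3. The part of stromal cells, vessel cells and leukocytes in the Notch1 values was not tested.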

How the data were processed

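Corneal epithelium was sequenced in 3 diabetic and 3 normal libraries, grouped by their titles. The deposited tables held counts and FPKM for 61453 loci, made by the authors from rat reads. The submitters' processing notes name cutadapt, FastQC, Bowtie2 and the rn6 build, with versions not given in the sources used here. Coordinates of promoters are on GRCr8 and were not converted. FPKM values at the files' placeholder for no signal were set to 0. FPKM was log2-transformed with a pseudocount of 1, quantile-normalised and tested with limma 3.58.1 (trend) in R 4.3.3, after a filter of a mean of at least 0.5 FPKM. The deposited counts were tested with edgeR 4.0.16 (quasi-likelihood) and DESeq2 1.42.0 as alternatives. Exact tests used scipy 1.17.1 in Python 3.11.15, and plots matplotlib 3.10.9. The scripts were also run on simulated counts, with 50 changed loci at each fold change. At a fold change of 2, limma and edgeR found 0 of the 50 and DESeq2 10. At 4, limma found 6, edgeR 12 and DESeq2 47. Calls among unchanged loci numbered 2 by limma, 3 by edgeR and 102 by DESeq2. That limma called no member thus does not by itself exclude a change of such a size. The limma intervals bear on it more closely. At a fold change of 2 the simulated loci had a median limma log2 fold change of 0.69, and at 4 of 1.43. The intervals of the tested members ran from -0.60 (Rbpj) to 1.19 (Numb). Only those of Rbpj (up to 0.80) and Numb reached past 0.69 in either direction. These medians are of the simulated loci and not of the members.

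The members and lists were chosen with earlier results of these data known. Named were all members and, of each role of the wider list, the 2 genes of smallest limma p and those whose groups did not overlap, of which 1 gene is not reported here. Further genes were named after their values had been seen. No pairing of libraries by replicate number was seen (correlations of same-numbered deviations -0.0092 to 0.032 over 3 pairs), which cannot exclude one. Other alternatives were no quantile normalisation, a pseudocount of 0.1, no filter, RLE scaling, leaving out each library, a replicate block, summed rows of a name, TMM-scaled CPM and, chosen after seeing the data, edgeR with no filter and summed counts of all rows of a name.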

Additional observations from a re-analysis of the deposited data

How the results depend on the processing

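No member and no gene of the wider or KEGG list passed the threshold under any alternative run for it. The number of loci called was 11 and became 6 with a pseudocount of 0.1, 3 with no filter, 6 by edgeR with TMM or RLE scaling, 99 by DESeq2, and 3 to 10 when a library was left out (3 without diabetic 1, 5 without diabetic 2 or diabetic 3). With the replicate block it was 1, although same-numbered libraries showed no shared deviation and their titles share only a number. Members without overlap numbered 1, but 0 on TMM-scaled CPM (9.5% of all loci), 3 with FPKM of rows summed (9.66%), 0 with counts of rows summed (9.5%), and 1 to 3 when a library was left out (Notch1, Notch2 and Numb without diabetic 1, Notch1 and Hes1 without diabetic 2, Notch1 and Dll1 without diabetic 3, Notch1 and Hey1 without normal 2). Of all loci, 27.9% did not overlap without diabetic 1, 16.7% without diabetic 2, 19.5% without diabetic 3 and 18.3% without normal 2. Notch1, Notch2, Dll1 and Numb kept their sign under the 10 alternatives and 6 left-out libraries run for each. Hey1 was run under 1 other fit, at 1.48 by edgeR with no filter, and with no library left out. Jag1 turned to -0.017 without quantile normalisation. Jag2 turned to 0.00091 by edgeR with RLE, 0.00098 by DESeq2 and 0.0012 by edgeR with no filter. With FPKM of rows summed, Notch3 was at -0.0069, Jag1 at -0.011 and Rbpj at -0.20. Leaving out 1 library gave -0.083 to 0.15 for Notch3, -0.080 to 0.11 for Jag1, -0.068 to 0.055 for Jag2, -0.23 to 0.31 for Rbpj, -0.24 to -0.011 for Dll1 and -0.17 to 0.019 for Hes1. The cause of these turns was not tested. Depth limits Hey1, Hes7, Heyl and Dll4, with at most 70 counts in a library.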
